A study of Mus musculus with 6 samples.

Results

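The nuclear genes of the mitochondrial respiratory chain and ATP synthase were compared between skin cells enriched by NCAM (neural cell adhesion molecule) and unselected skin cells. The authors used NCAM as a surface marker of Merkel cells, which are touch-sensing neuroendocrine cells. Membership was set by a name rule: every gene whose symbol begins with Ndufa, Ndufb, Ndufc, Ndufs, Ndufv, Uqcr, Cox4, Cox5, Cox6, Cox7, Cox8 or Atp5, together with Sdha, Sdhb, Sdhc, Sdhd and Cyc1. Names holding "-ps" or "os" were left out. This gave 98 of the 54532 genes in the table, 39 for complex I, 8 for complex I assembly factors (Ndufaf), 4 for complex II, 9 for complex III, 21 for complex IV and 17 for complex V. Among them 94 are annotated as protein-coding and 4 as processed pseudogenes (Ndufa11b, Ndufb4c, Ndufs6b and Cox6c2), and they lie on 19 chromosomes. Some names of other function come with the rule, since the Ndufaf genes and Atp5s encode no stable subunit.

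By the methods, both groups came from the dorsal epidermis of C57BL/6 mice aged 4 weeks, male and female, with no transgene or treatment named. The labels call the bulk group total skin, and fibroblast markers were found in it (below). The NCAM-enriched group has 3 libraries of NCAM-positive cells, pulled out on magnetic beads and then sorted. The bulk skin group has 3 libraries of live cells sorted without NCAM. Bulk skin may hold Merkel cells too. Each library came from 500 sorted events and was made by Smart-seq2, which copies polyadenylated RNA into full-length cDNA. Neither labels nor methods say that replicates were separate animals, so the tests measure only the spread between these libraries.

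The respiratory chain sits in the inner mitochondrial membrane. Complex I takes electrons from NADH and complex II from succinate, complex III hands them to cytochrome c, and complex IV gives them to oxygen. Complexes I, III and IV pump protons, and complex V, the ATP synthase, uses the returning protons to make ATP. Most subunits are encoded in the nucleus and a smaller set in mitochondrial DNA, so all of them but complex II are built from both.

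The libraries held 1343190 to 4481830 counts, and 1 count was worth 0.216 to 0.773 CPM (each count divided by the library size after edgeR's TMM scaling). Merkel cell markers summed to 482 to 1674 CPM in the NCAM-enriched libraries and to 133 to 186 in bulk skin, with 5 of 10 called higher by edgeR and no marker at 0 in either group. Other cells moved with the groups as well. Suprabasal keratinocyte markers summed to 12988 to 29860 against 1055 to 1419 CPM (6 of 8 called higher). In every NCAM-enriched library they thus summed to more than the Merkel cell markers. The lists hold different genes, so these sums do not give shares of cells. T and NK cell markers summed to 5.85 to 168 against 3018 to 3261 CPM, Langerhans and myeloid markers to 175 to 665 against 8947 to 14722, and red blood cell markers to 3.09 to 23.9 against 747 to 1176. NCAM-enriched library 2 stood apart, with 33003 CPM of fibroblast markers against 363 and 41.7 in libraries 1 and 3 and 10356 to 18198 in bulk skin. These markers did not move together in library 2. Col1a2 gave 15390 CPM there against 2379 to 4964 in bulk skin, while Dcn gave 774 against 1925 to 2113 and Lum 44.8 against 240 to 344. NCAM-enriched library 3 had the fewest Merkel cell markers of its group (482 CPM) and the most basal keratinocyte markers of all, 30792 CPM against 9649 and 7129 in libraries 1 and 2 and 11854 to 16282 in bulk skin. The part these cells play in the values below was not tested. Fewer cells of a type and less RNA per cell cannot be told apart in such data.

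The nuclear respiratory genes as a whole held a smaller share of the counts in the NCAM-enriched libraries. Their share of all counts was 1.36%, 1.12% and 1.66% for NCAM-enriched libraries 1 to 3, set against 3.34%, 2.30% and 2.75% for bulk skin, means of 1.38 ± 0.269% and 2.79 ± 0.522% (SD, n = 3 each). The groups did not overlap. In summed CPM the levels were 14382, 11617 and 17843 against 34530, 22236 and 26181, a ratio of means of 0.529. Single genes leaned the same way in most cases, but none passed the edgeR test.

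Of the 98 genes, 89 passed the count filter and were tested among 13157 genes. The fitted log2 fold change (NCAM-enriched over bulk skin) was below 0 for 78 of them and above 0 for 11, where 52.3% of all tested genes were below 0. Their median was -1.02, beside -0.07 over all tested genes. In 54 the 3 NCAM-enriched values all lay below the 3 bulk skin values, a pattern that 19.3% of all tested genes showed, and in 1 (Cyc1) all lay above, as in 11.1% of all tested genes.

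No member passed the edgeR quasi-likelihood test at an adjusted p of 0.05 in either direction, a test that called 1.04% of all genes higher and 1.55% lower. The lowest adjusted p was 0.0576, for Ndufb5 and Ndufa2. At an unadjusted p of at most 0.05, 40 members were lower (10.2% of all tested genes were) and 2 were higher, Cyc1 and Ndufa4l2 (8.73% of all). DESeq2 called 23 members lower and 0 higher (7.10% of all genes lower and 5.06% higher), and limma-voom called 16 lower and 0 higher (6.45% and 2.67%). The edgeR count also moved with the set-up: it was 22 lower and 1 higher with every gene of at least 1 count (2.66% and 2.76% of all genes) and 2 lower with plain library totals (1.90%). Without NCAM-enriched library 2 it was 2 lower (4.12%), and without library 3 it was 10 lower and 1 higher (4.90% and 7.35%). By DESeq2 the 23 were 8 complex I subunits, 1 assembly factor, 1 gene of complex III, 6 of complex IV and 7 of complex V.

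**Figure D1:**
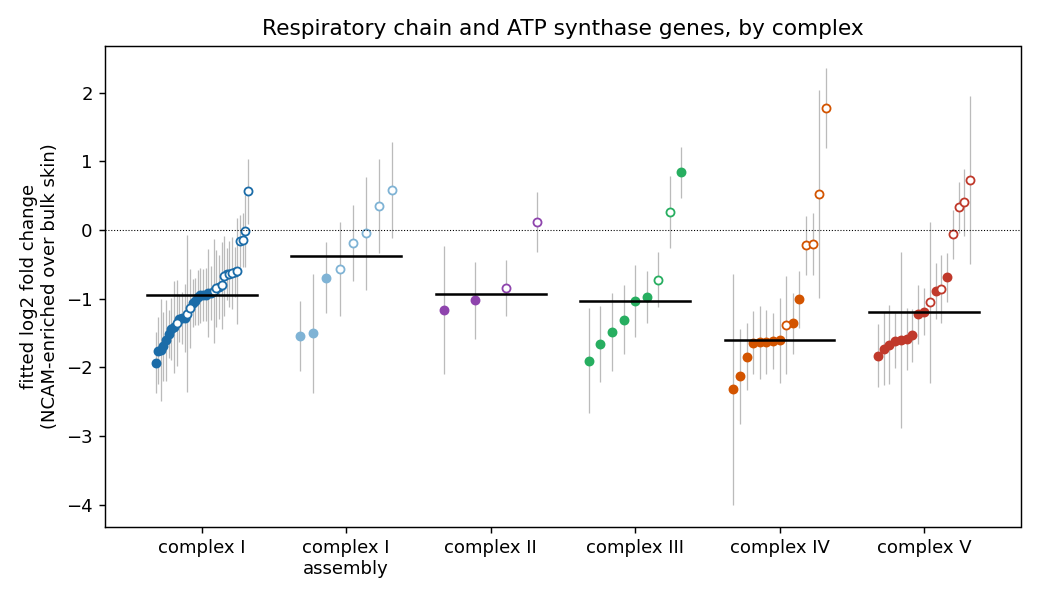
Fitted log2 fold change (NCAM-enriched over bulk skin, 3 libraries each) of the 89 tested genes by complex, with SE as grey bars and the median of each complex as a black line. Filled points are genes whose groups did not overlap, and 78 of the 89 points lie below 0.

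Levels summed over each complex separated the groups in complexes I to V. Complex IV had the lowest ratio of means, 0.436, with 3610, 2106 and 3697 CPM for NCAM-enriched against 8748, 5110 and 7739 for bulk skin. Complex I followed at 0.476, with 4689, 3543 and 5779 against 12737, 8136 and 8565 CPM. Complex III stood at 0.595, complex II at 0.624 and complex V at 0.660, and none of the 5 complexes had overlapping groups. The complex I assembly factors did overlap, at 265, 267 and 312 against 446, 374 and 291 CPM (ratio 0.760). Differences between complexes were not tested.

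**Figure D2:**
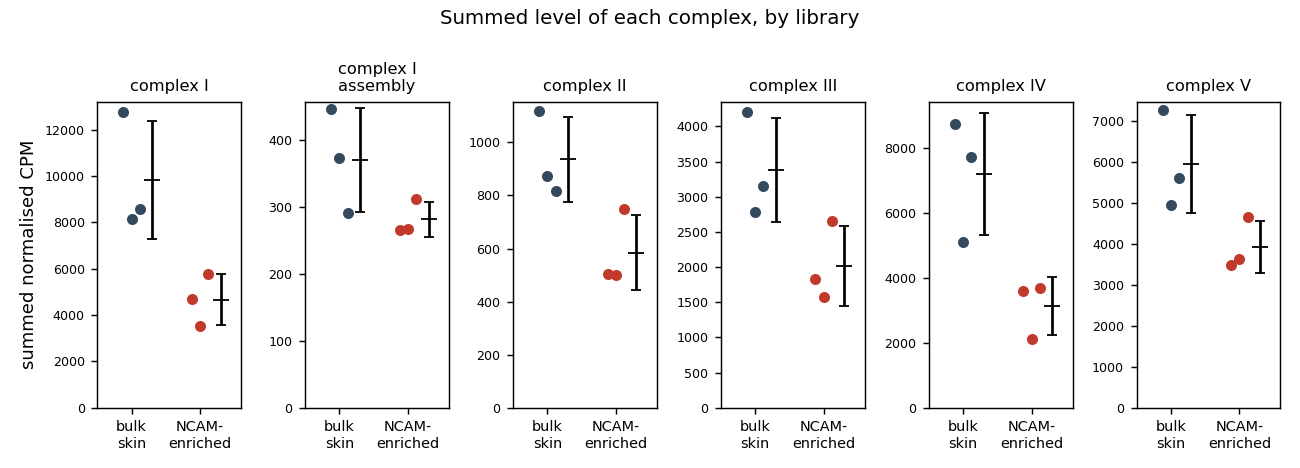
Summed normalised CPM of all genes of each complex in the 3 bulk skin and 3 NCAM-enriched libraries (points), with mean ± SD as bars beside them. The groups do not overlap in complexes I to V and overlap in the assembly factors.

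Complex I, the NADH dehydrogenase, is made of core subunits that carry out electron transfer and accessory subunits around them. All 29 tested accessory genes had a fold change below 0, with a median of -1.07. In 20 of them the groups did not overlap (19.3% of all tested genes were lower without overlap). Ndufb5, an accessory subunit of the membrane arm on chromosome 3 (32736990 to 32751566, plus strand, GRCm38), measured 43.0, 66.4 and 94.5 CPM (NCAM-enriched 1 to 3) against 321, 167 and 293 (bulk skin 1 to 3), the order kept for all genes here. Every NCAM-enriched value lay below every bulk skin value, and the log2 fold change of -1.93 ± 0.44 (SE; edgeR adjusted p = 0.0576) was called lower by 6 of the 15 alternatives. Reads of Ndufb5 are partly uncertain, since 12.3% of its exonic bases overlap Mrpl47. Ndufa3, another accessory subunit and the most abundant complex I gene in bulk skin, measured 230, 114 and 342 CPM against 918, 505 and 898. Its groups did not overlap either (log2 fold change -1.76 ± 0.49, edgeR adjusted p = 0.0860, called by 4 of 15 alternatives).

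The 7 core subunits encoded in the nucleus stood nearer to bulk skin. Their median log2 fold change was -0.60, and groups did not overlap in 2 of 7 (Ndufv2 and Ndufs8), both lower. Of all tested genes 19.3% were lower without overlap, and 7 genes are few to set beside that share. Ndufs1, which holds iron-sulphur clusters, had a log2 fold change of -0.16 ± 0.38, and Ndufv1, which binds NADH and flavin, had -0.14 ± 0.40. Both overlapped between groups. Lower values were those of Ndufv2 at -0.95, Ndufs7 at -0.85, Ndufs3 at -0.64 and Ndufs8 at -0.60. EdgeR, DESeq2 and limma-voom called none of the 7. At an unadjusted edgeR p of at most 0.05, 1 was lower (10.2% of all tested genes were). Core transcripts were longer than accessory ones, with medians of 1046 and 623 bases, and the difference between the classes was not tested.

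The 8 Ndufaf genes encode factors that help to build complex I and are absent from the finished enzyme. Their median log2 fold change was -0.38, with 6 of 8 below 0. In 3 of the 8 the groups did not overlap, with NCAM-enriched lower, as in 19.3% of all tested genes. Ndufaf2, a late assembly factor, measured 23.4, 20.1 and 23.0 CPM in the NCAM-enriched libraries and 86.0, 59.0 and 49.1 in bulk skin. Its groups did not overlap, and its log2 fold change of -1.54 ± 0.52 was called by DESeq2 (adjusted p = 0.0305) and not by edgeR (adjusted p = 0.142), while 65.6% of its exonic bases overlap B230220B15Rik. Ndufaf1, which acts on the membrane arm, had the highest value of the 8 at 0.58 ± 0.70 (34.5, 63.4 and 15.9 against 22.4, 33.3 and 20.01 CPM), with overlapping groups and -0.02 without NCAM-enriched library 2. Ndufaf3, the most abundant in mean CPM over both groups, had -0.19 ± 0.55.

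Complex II, the succinate dehydrogenase, also belongs to the citric acid cycle and has no subunit from mitochondrial DNA. Its 4 genes did not keep together. Sdha, the flavin subunit that oxidises succinate, measured 137, 360 and 156 CPM in the NCAM-enriched libraries and 210, 222 and 168 in bulk skin. The groups overlapped, with library 2 highest of all 6, and the log2 fold change was 0.12 ± 0.44, or -0.47 without that library. Sdhd, a membrane anchor, measured 63.2, 1.55 and 94.5 CPM against 147, 95.3 and 119, so its groups came close without overlapping. Its value of 1.55 CPM in library 2 stood for 2 counts, and the log2 fold change was -1.16 ± 0.94 with that library and -0.62 without it (edgeR adjusted p = 0.570 and 0.362).

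Sdhb, the iron-sulphur subunit, had 207, 69.5 and 368 against 529, 381 and 405 CPM, with no overlap and a log2 fold change of -1.02 ± 0.55. Sdhc, the other anchor, had -0.84 ± 0.41 with groups that overlapped. In counts per count of Sdhb, which need no scaling between libraries, Sdha stood at 0.659, 5.18 and 0.424 in the NCAM-enriched libraries and at 0.398, 0.583 and 0.415 in bulk skin. Library 2 thus stood apart within complex II, library 1 lay just above the bulk skin range and library 3 within it.

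Complex III passes electrons from ubiquinol to cytochrome c. None of its 9 genes passed the edgeR test and DESeq2 called 1 lower (7.10% of all genes). At an unadjusted edgeR p of at most 0.05, 5 were lower and 1 higher (10.2% and 8.73% of all tested genes). With 9 genes, these counts are few to set beside such shares. Cyc1 (chromosome 15, 76343523 to 76346260, plus strand, GRCm38), the haem protein that gives the electron to cytochrome c, measured 395, 373 and 341 CPM against 280, 200 and 141. All 3 NCAM-enriched values exceeded all bulk skin values, which no other tested member showed. The log2 fold change was 0.84 ± 0.37 (edgeR adjusted p = 0.262, and 0.125 to 0.601 over the alternatives), so it was not called.

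Uqcr10, a small subunit next to cytochrome c1, measured 222, 22.4 and 297 CPM against 845, 443 and 738. Its groups did not overlap and library 2 was far below the rest, and the log2 fold change was -1.90 ± 0.77 (edgeR adjusted p = 0.223), or -1.39 without library 2 (adjusted p = 0.0731). Per count of Cyc1, Uqcr10 gave 0.562, 0.0600 and 0.871 counts in the NCAM-enriched libraries and 3.02, 2.22 and 5.24 in bulk skin, with no overlap. The 2 core proteins of complex III differed from each other: Uqcrc1 had 233, 686 and 799 against 580, 575 and 275 CPM (log2 fold change 0.27 ± 0.53, groups overlapping), while Uqcrc2 had 78.1, 31.7 and 142 against 197, 164 and 155 (-1.03 ± 0.52, no overlap). Uqcrfs1, the Rieske iron-sulphur protein, had -0.72 ± 0.40. Uqcrh, Uqcrq, Uqcrb and Uqcr11, the remaining small subunits, lay between -1.66 and -0.97. In all 4 the groups did not overlap (19.3% of all tested genes were lower without overlap).

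Complex IV, cytochrome c oxidase, showed the lowest median of the complexes, -1.60 over 15 tested genes. It had 13 genes below 0 and 10 that were lower without overlap (19.3% of all tested genes were). Its nuclear subunits come partly as isoforms of different tissues, and the common isoforms carried nearly all counts. Cox6a1 (chromosome 5, 115345642 to 115348981, minus strand, GRCm38), the broadly expressed form of subunit 6a, was the most abundant of all 98 genes in bulk skin. It measured 630, 218 and 708 CPM in the NCAM-enriched libraries and 1987, 1043 and 1797 in bulk skin. The groups did not overlap (log2 fold change -1.63 ± 0.53, edgeR adjusted p = 0.135, DESeq2 adjusted p = 0.0261).

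Cox8a, the common form of subunit 8, measured 216, 37.1 and 315 CPM against 883, 542 and 1065, again without overlap. Its log2 fold change of -2.13 ± 0.69 became -1.65 without library 2, and the adjusted p was 0.134 by edgeR and 0.0241 by DESeq2. Cox6b1, Cox7a2 and Cox7b, further subunits of the common kind, had log2 fold changes of -1.64, -1.63 and -1.61, no overlap in any, and calls by DESeq2 but not by edgeR. Cox5a and Cox5b, which cover the matrix side, had -1.36 and -1.01.

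Cox4i1, the common form of subunit 4, did not follow them. It measured 954, 785 and 1057 CPM against 1427, 1233 and 550, with groups that overlapped and a log2 fold change of -0.20 ± 0.45, which turned to 0.21 when the trend with transcript length was removed. Cox7a2l, a factor that joins complexes III and IV into supercomplexes, had -0.22 ± 0.43 with overlapping groups.

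The muscle and testis isoforms and Cox4i2 stayed at or below 43.3 CPM in every library. Cox6a2 (muscle), Cox7b2 and Cox8c (testis) had no count in any library, and Cox8b (muscle) had 9 counts in bulk skin library 2 alone. Cox4i2, the form linked to lung and low oxygen, had 56 counts in NCAM-enriched library 2 and 0 in the others of that group, against 0, 7 and 12 in bulk skin, and did not pass the filter. Cox6b2 (testis) had 17, 0 and 0 counts against 70, 51 and 46. Cox7a1 (muscle) had 24.4, 8.50 and 0 CPM against 3.73, 7.998 and 10.97, with overlapping groups and a log2 fold change of 0.53 ± 1.52. Skeletal muscle markers stood at 282, 160 and 13.3 CPM in the same NCAM-enriched libraries and at 9.05 to 14.5 in bulk skin. Acta1 gave 264, 160 and 6.24 CPM of these sums and 0 in bulk skin, and Mylpf gave 16.5, 0 and 4.26 against 11.8, 10.4 and 5.76. Reads of Acta1 may be shared with other actin genes, and the part of these markers in the Cox7a1 values was not tested.

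Ndufa4 and Ndufa4l2 are paralogues. Ndufa4 is named for complex I but is a subunit of complex IV, and Ndufa4l2 is a protein known to be induced by low oxygen that lowers complex I activity. Ndufa4l2 (chromosome 10, 127514967 to 127517154, plus strand, GRCm38) measured 291, 239 and 74.1 CPM in the NCAM-enriched libraries and 92.2, 41.9 and 41.4 in bulk skin. Libraries 1 and 2 lay above all bulk skin values and library 3 lay within their range, and the log2 fold change was 1.78 ± 0.58 (edgeR adjusted p = 0.135), the highest of the 89. It was called higher without library 3 (adjusted p = 0.0383) and with every gene of at least 1 count (adjusted p = 0.0422), and by none of the other 13 alternatives, DESeq2 among them at an adjusted p of 0.05004.

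Ndufa4 went the opposite way, with 275, 50.2 and 205 CPM against 647, 297 and 673, groups that did not overlap and a log2 fold change of -1.60 ± 0.62 (edgeR adjusted p = 0.201). Counts of Ndufa4l2 per count of Ndufa4 were 1.06, 4.75 and 0.361 for NCAM-enriched cells, against 0.143, 0.141 and 0.0616 for bulk skin. This ratio, which does not depend on library scaling, did not overlap between the groups. The pair was set side by side after its values had been seen.

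**Figure D3:**
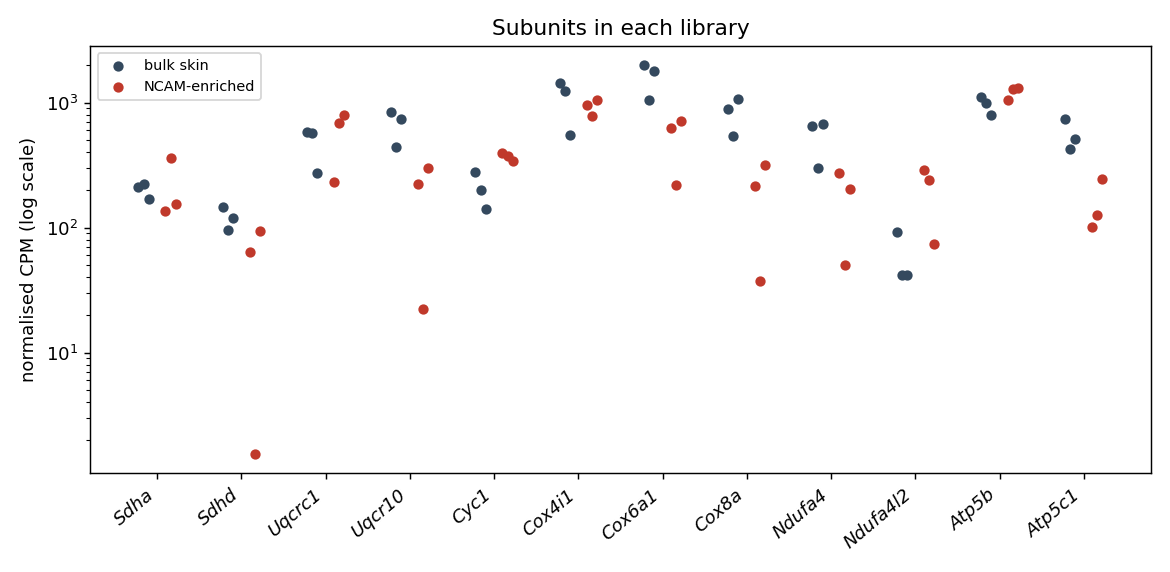
Normalised CPM (log axis) of 12 named genes in each bulk skin library and each NCAM-enriched library. Cyc1 is the only one with every NCAM-enriched value above every bulk skin value, and the lowest points of Sdhd, Uqcr10, Cox6a1, Cox8a and Ndufa4 all belong to NCAM-enriched library 2.

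Complex V couples a catalytic head (F1) with a central stalk to a rotor ring and a peripheral stalk in the membrane. The genes of the head and those outside it had different values. The 5 genes of the head and central stalk had a median log2 fold change of -0.06 and summed levels that overlapped (2352, 2486 and 3162 against 3543, 2818 and 2601 CPM, ratio 0.893). The 12 genes outside it had a median of -1.36, with 11 below 0, and summed levels that did not overlap (1134, 1147 and 1492 against 3725, 2136 and 3006 CPM, ratio 0.426). The difference between the classes was not tested, and the median transcript lengths were 1166 and 658 bases.

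Atp5b, the catalytic beta subunit, measured 1047, 1285 and 1319 CPM against 1104, 994 and 800, with groups that overlapped and a log2 fold change of 0.33 ± 0.37. Atp5a1, the alpha subunit beside it, had 488, 732 and 720 against 704, 715 and 602 CPM and -0.06 ± 0.36. Atp5c1 (chromosome 2, 10056016 to 10080510, minus strand, GRCm38), the gamma subunit that turns within the same head, measured 100, 126 and 245 against 742, 422 and 511 CPM. It was the lowest of complex V and its groups did not overlap (log2 fold change -1.83 ± 0.45, edgeR adjusted p = 0.0688, DESeq2 adjusted p = 0.00445, called by 4 of 15 alternatives).

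The other two of the 5 also differed from each other: Atp5e, the epsilon subunit of the central stalk, had 200, 111 and 257 against 533, 299 and 499 CPM (log2 fold change -1.23 ± 0.43, no overlap), and Atp5d, the delta subunit beside it, had 518, 231 and 621 against 460, 388 and 189 (0.40 ± 0.49, groups overlapping). Per count of Atp5b there were 0.0959, 0.0980 and 0.185 counts of Atp5c1 in the NCAM-enriched libraries and 0.672, 0.425 and 0.639 in bulk skin, again without overlap. Atp5c1 has a transcript of 1166 bases, longer than most members, and its log2 fold change was -1.51 with the length trend removed. The 3 genes of the rotor ring, Atp5g1, Atp5g2 and Atp5g3, encode the same mature c subunit. Atp5g3 carried most of their counts (302, 291 and 320 against 657, 388 and 422 CPM, log2 fold change -0.69 ± 0.36, no overlap). Atp5g1 had -1.67 ± 0.58 and Atp5g2 -1.05 ± 1.17, but 56.2% and 100% of their 50-base windows also occur in other genes, so both are uncertain. The highest value of the complex, 0.73 ± 1.22 for the membrane subunit gene Atp5l, is uncertain in the same way (84.8%) and became -0.74 without NCAM-enriched library 2.

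The fold changes were related to transcript length. Respiratory genes are short, with a median transcript of 704 bases beside 2474 for all tested genes, and 67.4% of the tested members were at most 1000 bases against 13.4% of all. Among members of up to 600 bases the median log2 fold change was -1.42 (n = 34), beside -0.76 for the 515 genes of that length. From there to 1000 bases it was -0.87 (n = 26) beside -0.62 for 1242 genes, and above 1000 bases it was -0.62 (n = 29) beside 0.01 for 11391 genes. The longest class is not matched in length, since its members had a median of 1485 bases and all genes of about 1385 and 1536 bases had medians of -0.38 and -0.29. Groups did not overlap, with NCAM-enriched lower, in 27, 16 and 11 members of the 3 classes, and in 34.8%, 31.8% and 17.2% of all genes in them.

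Across the 89 members, which share the same 6 libraries, log2 fold change followed log2 length with Pearson's r of 0.50 and Spearman's rho of 0.53, and across all tested genes with r of 0.14 and rho of 0.19. With GC content r was 0.15. Each NCAM-enriched library taken against the bulk skin mean gave a rho of 0.41, 0.42 and 0.55, values that share that mean. When the length trend of all genes was removed from each library, the members' median went from -1.02 to -0.68, beside -0.09 over all tested genes. Then 72 of 89 members were below 0, where 53.3% of all tested genes were, and edgeR called 0 members in either direction. At an unadjusted p of at most 0.05, 22 members were lower and 2 higher. Of all 13157 tested genes, 2375 passed that p in either direction. The members' fold changes still followed length after this step (r 0.35, rho 0.39). The medians were then -0.57 for complex I, -0.05 for its assembly factors, -0.59 for complex II, -0.83 for complex III, -1.13 for complex IV and -0.71 for complex V. What length stands for here was not tested.

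**Figure D4:**
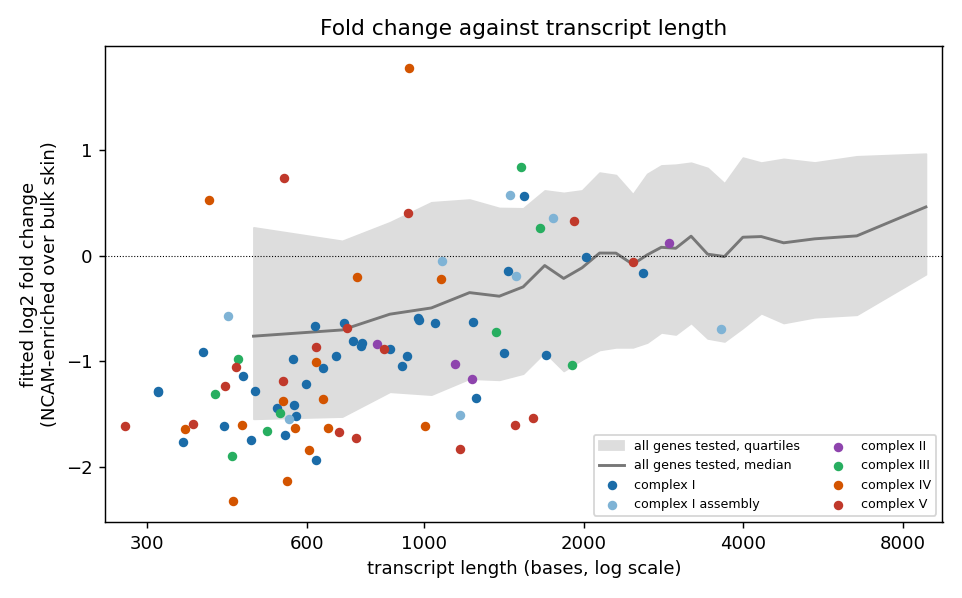
Fitted log2 fold change (NCAM-enriched over bulk skin) of the 89 tested members against transcript length in bases (log axis), coloured by complex, over the median (line) and quartiles (band) of all tested genes in bins of length. Shorter members tend to lie lower, and members of up to 600 bases have a median of -1.42 where all genes of that length have -0.76.

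Within the NCAM-enriched group the members varied by library. NCAM-enriched library 2 was the lowest of all 6 libraries in 52 of 89 genes, library 1 in 21 and library 3 in 6. The median difference from the bulk skin mean (log2 of CPM plus 0.5) was -0.91, -1.61 and -0.62 in libraries 1 to 3. Library 2 had the lowest total and the fibroblast markers given above. Without it the members' median log2 fold change was -0.90, and that of complex IV was -1.18. The order of levels among members was much the same in both groups: mean CPM per kilobase of transcript in NCAM-enriched against bulk skin gave r of 0.93 on the log2 scale over 89 genes, where both axes share the transcript lengths. The highest in bulk skin were Cox6b1 at 2923 and Cox6a1 at 2818 CPM per kilobase, and Sdha and Ndufs1 were among the low ones at 69.0 and 38.8.

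The subunits encoded in mitochondrial DNA went the other way in level. Of 13 such genes, 7 were tested and all 7 had a log2 fold change above 0, with a median of 1.76. EdgeR called 0 of them, and 6 were higher at an unadjusted edgeR p of at most 0.05 (8.73% of all tested genes). DESeq2 called 3 higher and limma-voom 1 (5.06% and 2.67% of all genes). Again, 7 genes are few to set beside these shares. mt-Nd4, a proton-pumping subunit of complex I, measured 399, 828 and 142 CPM in the NCAM-enriched libraries and 77.0, 47.1 and 85.3 in bulk skin. Its groups did not overlap (log2 fold change 2.71 ± 0.63, edgeR adjusted p = 0.0590). mt-Nd5, another such subunit, had 174, 382 and 82.0 against 49.1, 26.2 and 49.6 CPM (2.35 ± 0.60, edgeR adjusted p = 0.0714), also without overlap. mt-Cytb, the cytochrome b of complex III and the most abundant named, had 555, 807 and 410 against 360, 186 and 351 CPM.

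Summed over the 13 genes, the level was 2198, 4138 and 1237 CPM against 1078, 564 and 1080. Nuclear CPM per mitochondrial CPM came to 6.54, 2.81 and 14.4 for NCAM-enriched cells, against 32.03, 39.5 and 24.2 for bulk skin, without overlap. The authors removed abundant sequences before alignment, and 5 of the 13 genes (mt-Co2, mt-Co3, mt-Atp6, mt-Atp8 and mt-Nd4l) had no count in any library, so these levels are those left after that step.

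Other genes of mitochondrial energy metabolism were read in the same fit. Of 40 tested assembly factors and cytochrome c genes, 33 were below 0 with a median of -0.72, edgeR and limma-voom called 0 and DESeq2 called 3 lower (7.10% of all genes), and 6 were lower at an unadjusted edgeR p of at most 0.05 (10.2% of all). Cycs, the somatic cytochrome c that carries electrons from complex III to IV, had 0.531, 0 and 0.851 against 12.1, 5.19 and 11.2 CPM. Its groups did not overlap (edgeR adjusted p = 0.132, DESeq2 adjusted p = 0.0360). Its NCAM-enriched mean of 0.461 CPM is near the level that 3 counts over the group stand for, 0.448 CPM. Windows shared with other genes were not examined for Cycs. Coa6, a copper-handling assembly factor of complex IV, had 13.3, 8.50 and 4.26 against 61.2, 22.7 and 59.8 CPM (edgeR adjusted p = 0.123, DESeq2 adjusted p = 0.0149).

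The citric acid cycle (18 tested) had a median of -0.34, mitochondrial carriers and outer membrane genes (15 tested) -0.54, and reactive oxygen defence (10 tested) -0.53. Glycolysis and lactate genes (20 tested) had 0.15 and regulators of mitochondrial biogenesis (16 tested) 0.14. EdgeR called 0 of the 79 genes of these 5 lists. At an unadjusted edgeR p of at most 0.05, 10 were lower and 5 higher (10.2% and 8.73% of all genes), and limma-voom called 4 lower (6.45%). These pooled counts lay near the background. The lists are small, with 10 to 20 tested genes each, and differences between them were not tested. At that p, 5 of the 15 carriers list genes were lower and 0 higher, and 3 of the 16 regulators were higher and 0 lower. In the cycle 2 were lower and 0 higher, in defence 2 and 1, and in glycolysis 1 and 1. DESeq2 called lower 1 of the cycle (Idh3g, a subunit of isocitrate dehydrogenase), 4 of the carriers, 1 of the defence genes (Sod1) and 1 of glycolysis (Hk2), 7 in all beside 7.10% of all genes, and called higher 1 regulator, Esrra, a nuclear receptor that drives respiratory genes. Esrra measured 91.4, 46.4 and 71.8 CPM against 10.9, 27.2 and 7.13, with no overlap (log2 fold change 2.21 ± 0.67, edgeR adjusted p = 0.111, DESeq2 adjusted p = 0.0164). Prdx5, a defence gene on the other side from Sod1, had 989, 356 and 596 against 317, 252 and 191 CPM, with no overlap (edgeR adjusted p = 0.145, DESeq2 adjusted p = 0.0518). Mpc1, of the carriers list, had 7.97, 5.41 and 24.1 against 94.4, 72.6 and 101 CPM (log2 fold change -2.80 ± 0.66, edgeR adjusted p = 0.0618). The 77 tested cytosolic ribosomal proteins, which are also short (median 737 bases), had a median of -0.76, with 70 below 0, and -0.30 with the length trend removed, where the respiratory genes had -0.68.

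Respiratory promoters are known for sites of NRF1 and of the GA-binding protein GABP. RefSeq (GRCm38.p6) gave windows from 250 bases before to 50 after the start for 76 of the 98 genes. The letters GCGCNTGCG, the core of the NRF1 motif, were found on either strand in 25 of 76 (32.9%), against 7.12% of all 27025 genes with a window and 15.1% of the 9988 tested ones. CCGGAAG, a GABP motif, was found in 18 (23.7%, against 9.93% and 19.6%), and AAGATGG, a YY1 motif, in 12 (15.8%, against 7.28% and 8.24%). The 37 tested members with an NRF1 or GABP match had a median log2 fold change of -0.98 and 23 with lower, separate groups, and the 37 with neither had -1.14 and 24. The 3 upstream sequences given here, each of 250 bases up to the RefSeq start and written 5′ to 3′ on the gene's strand, show genes on different sides: Sdha, whose groups overlapped, Sdhd of the same complex, whose groups did not, and Cox6a1, the most abundant in bulk skin and without overlap. Capitals mark matches to the NRF1 or GABP letters on either strand.
Sdha, chr13:74350241-74350490, minus strand: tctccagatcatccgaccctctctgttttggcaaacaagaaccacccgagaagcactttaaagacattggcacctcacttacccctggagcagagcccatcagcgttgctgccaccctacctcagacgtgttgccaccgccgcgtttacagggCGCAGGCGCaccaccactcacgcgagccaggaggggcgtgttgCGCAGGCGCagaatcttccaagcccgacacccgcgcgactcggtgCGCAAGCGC
Sdhd, chr9:50603850-50604099, minus strand: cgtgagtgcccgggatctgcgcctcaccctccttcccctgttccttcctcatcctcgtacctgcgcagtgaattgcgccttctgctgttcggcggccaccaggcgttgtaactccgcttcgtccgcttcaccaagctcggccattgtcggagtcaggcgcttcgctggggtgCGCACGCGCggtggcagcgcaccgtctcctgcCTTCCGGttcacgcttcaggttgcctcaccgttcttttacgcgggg
Cox6a1, chr5:115348959-115349208, minus strand: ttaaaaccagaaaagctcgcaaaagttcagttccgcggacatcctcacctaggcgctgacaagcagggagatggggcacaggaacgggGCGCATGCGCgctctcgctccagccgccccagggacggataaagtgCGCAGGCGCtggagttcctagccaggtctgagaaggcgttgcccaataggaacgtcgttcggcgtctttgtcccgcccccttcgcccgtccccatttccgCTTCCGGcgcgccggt

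Sdha holds 3 NRF1 matches and no GABP match in these bases, Sdhd holds 1 of each, and Cox6a1 holds 3 NRF1 matches, of which the first pair overlap on opposite strands, and 1 GABP match. The same letters thus stand before genes with overlapping and with separate groups. A match describes the letters only and shows no binding.

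Many respiratory genes have processed copies elsewhere in the genome. Of the 89 tested members, 30 share at least 10% of their 50-base windows (the read length) with transcripts of another gene and 7 share at least 50%: Atp5g2, Atp5l, Atp5g1, Ndufa12, Cox7c, Atp5h and Atp5o. How reads with several matches were counted is not given in the sources used here, and the values of these 7 are uncertain. Without the 30 the median log2 fold change was -0.94 over 59 genes, with 35 lower and not overlapping (19.3% of all tested genes were). Among the names left out, Ndufb1-ps, the most abundant of them, had 99.9, 31.7 and 148 CPM against 241, 111 and 368, with a log2 fold change of -1.36.

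Of the members that did not pass the filter, Ndufs6b, a processed copy of a complex I gene, had 11.7, 4.64 and 1.14 CPM against 0.621, 1.08 and 0.823. Ndufb4c, Cox6a2, Cox7b2 and Cox8c had none. Over 3 libraries, 0 counts allow a level of up to 0.448 CPM for NCAM-enriched cells and 0.261 for bulk skin (3 counts over the group, counting error only).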

How the data were processed

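Smart-seq2 libraries were sequenced in single-end reads of 50 bases. The authors deposited raw read counts per gene, made by clipping adapters and polyA, removing abundant sequences, aligning to GRCm38 with STAR and counting with featureCounts. Annotation release, strand setting and the treatment of reads with several matches are not given in any source used here. Reads are PCR copies without molecular identifiers.

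The main test was the quasi-likelihood F-test of edgeR 4.0.16 under R 4.3.3, non-robust, after filterByExpr and with TMM factors. P-values were adjusted over 13157 genes by Benjamini-Hochberg, with calls at 0.05 or less, and the common biological coefficient of variation came to 0.744. Normalised CPM divide each count by the TMM-scaled library size, and SE is the absolute log2 fold change over the square root of F. DESeq2 1.42.0, limma-voom (limma 3.58.1), other scalings and filters, and the removal of trends in transcript length or GC content were alternatives. In simulated data the fit recovered 3.16% of the differences set at 4-fold and 40.4% of those set at 16-fold. The lack of an edgeR call therefore does not show that a gene was equal in both groups. Replicate numbers were not treated as pairs, since neither labels nor methods say that they pair the libraries. Same-numbered libraries deviated from their group means with correlations of 0.0226, 0.00025 and -0.00436, which cannot show whether they shared an animal.

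Positions and transcript lengths (the median-length basic protein-coding transcript of a gene) came from GENCODE M21 and promoters from RefSeq. The genes and lists were chosen with earlier results of these data known. Named members were those of isoform families and of complex II, the catalytic cores, and in each complex the highest, the lowest and the most abundant. Genes of other lists were named from those with the 2 smallest p and the most abundant one of each list, and not all of these were named. Uqcrh, Uqcrq, Uqcrb, Uqcr11, Ndufa2, Ndufs6b, Ndufb1-ps, Atp5d, Atp5e, the mitochondrial genes at 0 and the genes with shared windows were named after their values had been seen. The values of 1 member are not reported here. Figures were drawn with matplotlib 3.10.9.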

Additional observations from a re-analysis of the deposited data

How the results depend on the processing

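The medians of all members, of complexes I to V and of the assembly factors stayed below 0 under the 15 alternatives. Medians of smaller classes and other lists were not run under them, except with the length trend removed where given. The count of members called lower, 0 in edgeR, was 2 with library totals, 22 with every gene of at least 1 count, 16 with limma-voom, 23 with DESeq2 and 0 to 10 when a library was left out, and the count called higher was 1 with every gene of at least 1 count and 0 to 1 when a library was left out. With the transcript length trend removed, the log2 ratio of summed levels went from -1.07 to -0.66 in complex I, from -0.40 to -0.12 in its assembly factors, from -0.75 to -0.39 in complex III, from -1.20 to -0.76 in complex IV and from -0.60 to -0.31 in complex V, and the median of complex V went from -1.19 to -0.71. The cause was not tested. Leaving out 1 library at a time, the medians ran from -1.28 to -0.84 over all members, from -1.20 to -0.74 in complex I, from -0.77 to -0.10 in its assembly factors, from -1.43 to -0.62 in complex II, from -1.46 to -0.81 in complex III, from -1.79 to -1.18 in complex IV and from -1.57 to -1.05 in complex V. For the 41 named members with a fit, none of them called by edgeR, 35 of 615 values became calls, and 22 values, in 10 members, had the other sign.

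With the replicate number as a block the members' median was -1.07 and 0 were called in either direction. At an unadjusted p of at most 0.05, 37 members were lower and 1 higher, and 2034 of all 13157 tested genes passed in either direction. Calls over all genes went from 137 higher and 204 lower to 50 and 92. Neither labels nor methods say that the numbers pair the libraries, and no correlation of same-numbered libraries exceeded 0.0226. With 3 libraries a group, such correlations cannot show whether same-numbered libraries shared an animal. Without 1 library, edgeR called between 0 and 1099 of all genes higher and between 13 and 733 lower. The median over all genes moved from -0.07 to -0.37 with limma-voom, to -0.36 with the block and to 0.08 with every gene of at least 1 count, so the members' medians there are relative to those values. Leaving out members that share windows with other genes, chosen after seeing the data, gave a median of -0.94. Summed levels could not be computed for limma-voom or the block. Depth limits the rare isoforms, where 1 count is up to 0.773 CPM, and 3 libraries a group limit every call.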
